A study of Mus musculus with 32 samples.

Results

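The proteasome is the protease complex that breaks down ubiquitin-tagged proteins, and most of its subunits are encoded by genes whose symbols begin with Psm. All gene symbols of the form Psma to Psmg followed by a number were taken from the RNA-seq tables of WT and Eed-/- mouse embryonic stem cells (mESCs). This gave 50 of 24028 symbols, each listed once, and 49 of the 50 had a mean normalized FPKM of at least 0.1 (a fragment count corrected for transcript length and library size). The remaining gene was Psmb11, which encodes a thymus-specific subunit. One match, Psmc3ip, encodes a cofactor of meiotic recombination that is not part of the proteasome, and it is listed apart from the other 49 genes. The study asked how Polycomb proteins keep large unmethylated domains near developmental genes free of DNA methylation. RNA was sequenced from 1 WT library and 1 Eed-/- library, with cells of both kept on gelatin in serum with leukemia inhibitory factor. Both RNA samples are labelled with the line TT2, whereas the Eed-/- samples of the other assays are labelled with another line.

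A barrel-shaped core particle holds the proteolytic sites on its inner beta rings, and the outer alpha rings gate the entrance. A regulatory particle caps the barrel, where a ring of ATPases unfolds the substrate. Non-ATPase subunits of its base and lid bind ubiquitin chains and remove them. Interferon exchanges the catalytic beta subunits for inducible ones and adds another cap, the activator made by Psme1 and Psme2, and this immunoproteasome is known for producing peptides for antigen presentation. Dedicated chaperones assemble the rings, and embryonic stem cells are known for high proteasome activity.

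With 1 library per genotype, no difference had a replicate check and no test was made. Genotype, culture and cell line cannot be told apart. WT held about 7210000 fragments and the library labelled Eed-/- about 6380000, as recovered from the step size of low FPKM values. Eed (chromosome 7), which encodes a subunit of Polycomb repressive complex 2, had 63.0 FPKM in WT against 70.9 in the library labelled Eed-/-, so the targeted transcript was not reduced, and directions are given for the library by its label. A transcript level does not tell whether the protein was present, and the H3K27me3 data with which the study checked its Eed-/- cells were not analysed here. All 10 pluripotency markers were above 0 in both libraries, with a summed FPKM of 1518 in WT against 1703 in the library labelled Eed-/-. The sum of 8 feeder fibroblast markers was 2.15 and 7.52 (Dcn at 0 in both), where Thy1 alone went from 0.976 to 6.97 and Col1a1 from 0.460 to 0.137. The sum of 8 primitive endoderm markers was 15.5 and 57.2, with 7 of 8 higher by 1.2-fold, beside 29.2% of all genes. Most of this sum came from Lama1 (8.25 and 33.5) and Col4a1 (5.62 and 19.1). The other markers of this list, with Gata4, Gata6, Sox17 and Sox7 among them, were at most at 1.35. The sum of 7 trophoblast markers was 59.8 and 19.98 (Elf5 at 0 in both), with 2 higher and 4 lower, and Tfap2c alone went from 39.8 to 9.21. The part of these markers in the results was not tested. Genes of chromosomes 1 and 8 were lower as groups in the library labelled Eed-/-, with median changes of -0.30 and -0.39, and genes of chromosome X were higher, with a median of 0.46.

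To measure the abundance of proteasome RNA, FPKM as deposited were compared between genes. The 31 constitutive subunit genes (7 alpha, 7 beta, 6 ATPase and 11 non-ATPase genes) had a median FPKM of 138 in WT against 118 in the library labelled Eed-/-. Psmb6, the subunit with caspase-like activity, was the most abundant, with an FPKM of 279 in WT against 259 in the library labelled Eed-/-. At the other end stood Psma3, an alpha ring subunit, with 5.00 and 6.86. The span between these genes was 55.8-fold in WT.

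The low end was held by genes with near-identical copies elsewhere in the genome. Of the 31 genes, 9 had a copy that covers at least 80% of the coding sequence at 95% identity or more, and reads from such genes can match several places. The 22 genes without a copy lay between 89.3 (Psmc2) and 279 in WT, a 3.12-fold span, and all 22 were within 2-fold of their median of 159. In the library labelled Eed-/- the span of these 22 genes was 4.02-fold, and 21 were within 2-fold of the median of 140.2. The 9 genes with a copy ran from 5.00 to 169.5 in WT, with a median of 82.6. The 5 lowest constitutive genes in WT, namely Psma3, Psma5 (13.01), Psmd11 (46.8), Psmb3 (54.8) and Psmb5 (82.6), all had a copy. Psma3 has 3 copies, of which the closest, on chromosome 6 of mm9 from 31091979 to 31092663, shares 99.85% of its bases and has no introns. Psma5 has 2 such copies, with 98.9% and 98.8% identity. How the quantification divided reads between a gene and its copies is not given in the sources used here, so the levels of these genes are uncertain, and the part of the copies in their low values was not tested.

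**Figure D1:**
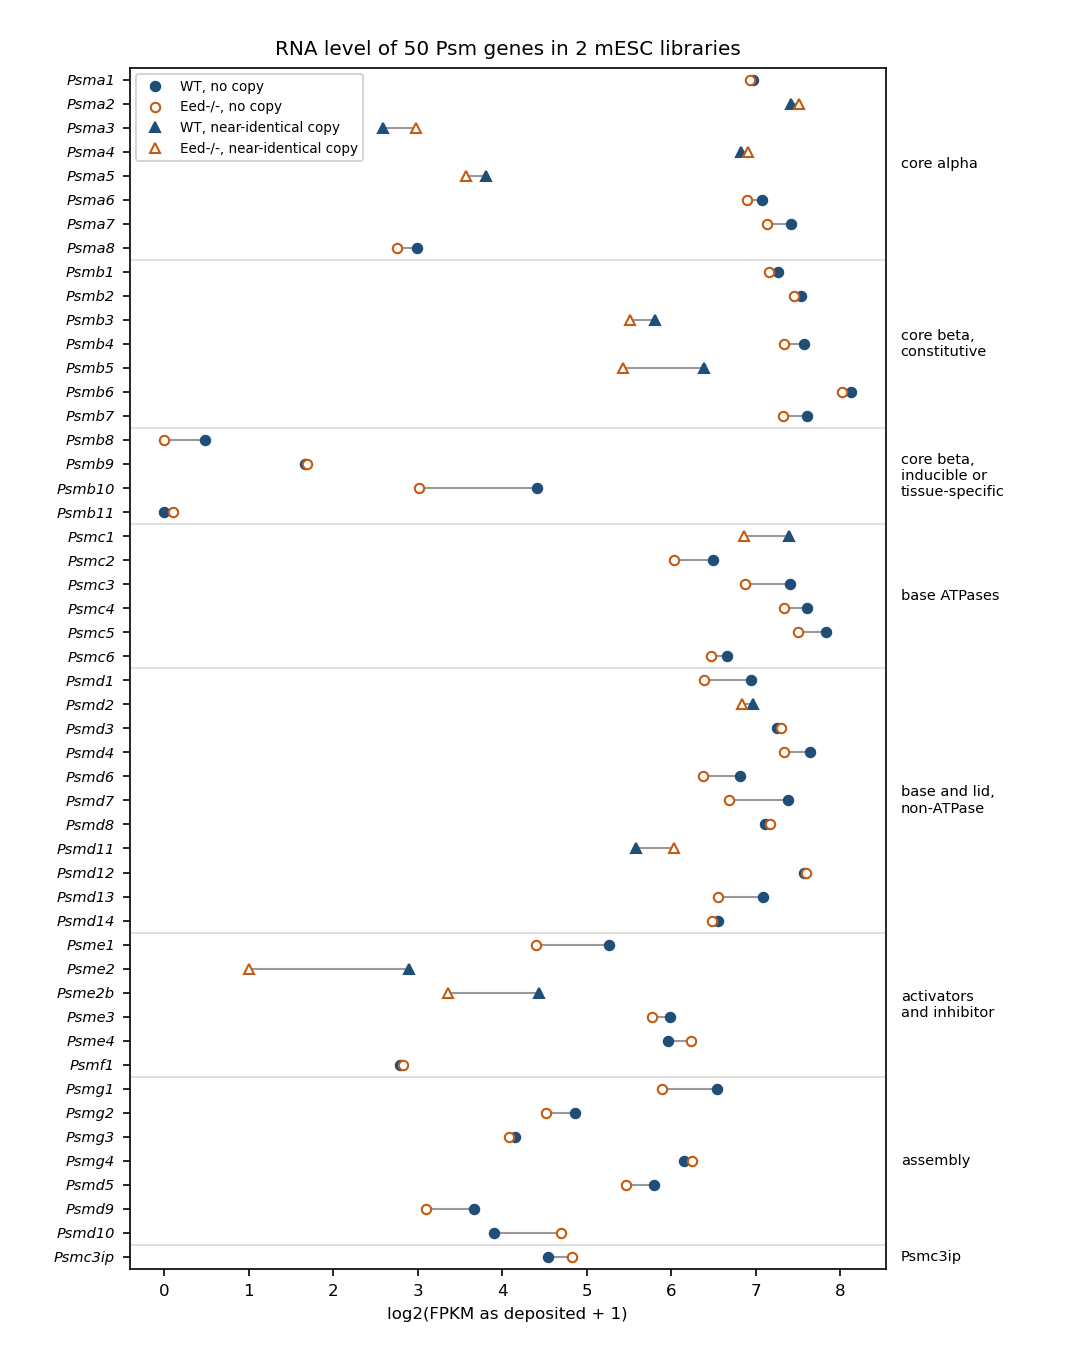
RNA level of each of the 50 Psm genes, as log2(FPKM as deposited + 1), ordered by role on the vertical axis, with WT in filled and the library labelled Eed-/- in open symbols and triangles for genes with a near-identical copy. Most core and regulatory particle genes sit together at the high end, from 89.3 FPKM in WT for genes without a copy. The inducible beta genes Psmb8 (0.396 and 0) and Psmb9 (2.19 and 2.22) sit at the low end, and Psmb10 (20.2 and 7.10) lies between.

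**Figure D2:**
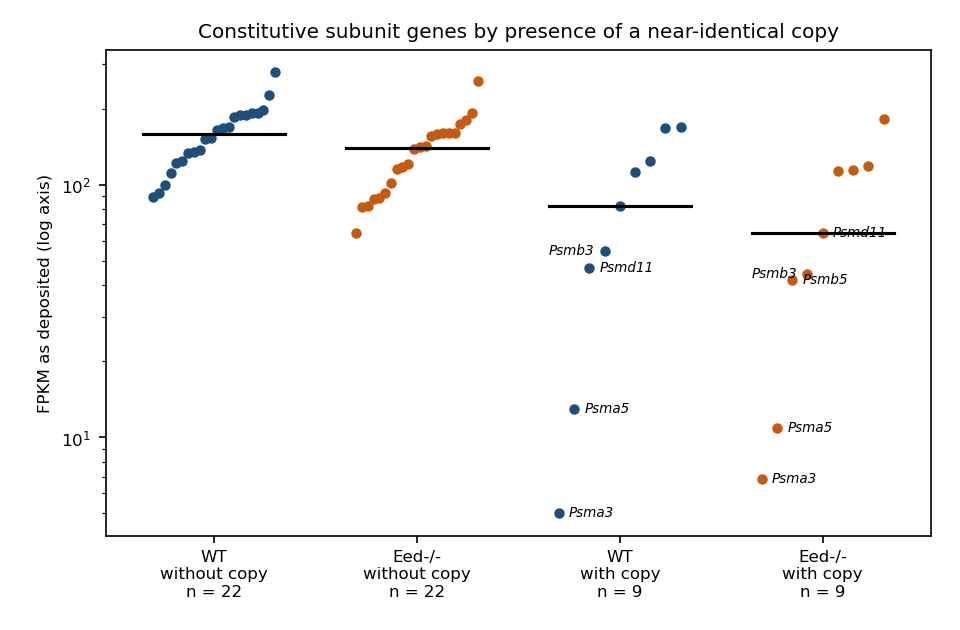
FPKM as deposited (log axis) of the 31 constitutive subunit genes, with 1 point per gene and a bar at the median, for the 22 genes without and the 9 genes with a near-identical copy in each library. The genes without a copy form a narrow band around medians of 159 and 140.2, and Psma3, Psma5, Psmb3, Psmb5 and Psmd11 lie below all of them in both libraries.

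To compare the libraries, FPKM were quantile-normalized, and the change of a gene is the difference in log2(FPKM + 1), the library labelled Eed-/- minus WT. Over the 49 members that passed the level filter, the median change was -0.02, beside 0.01 over all 14835 genes. By at least 1.2-fold, 10 members (20.4%) were higher in the library labelled Eed-/-, where 29.2% of all genes passed this fold. Lower by the same fold were 11 members (22.4%), where 28.5% of all genes did. Both shares were thus below those of all genes. Past 2-fold no member was higher and 2 were lower, Psmb10 and Psme2, beside 3.8% of all genes higher and 3.98% lower. Among the 37 members with a mean of at least 20 FPKM, 8 were higher and 6 lower by 1.2-fold, beside 27% and 25.9% of all genes at that level.

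The direction of small changes depended on the scaling. With FPKM as deposited, where the median of all genes moved to -0.09 and that of genes of at least 20 FPKM to -0.20, 5 members were 1.2-fold higher and 23 lower, beside 23.2% and 35.9% of all genes (15.1% and 43.6% at 20 FPKM or more). Of the 49 members, 38 had the same sign under the 3 scalings compared (quantile, as deposited and median-ratio), and 11 did not (Psma1, Psma6, Psmb1, Psmb2, Psmb4, Psmb6, Psmc6, Psmd2, Psmd14, Psme3 and Psmg3). Past 1.2-fold under all 3 scalings were 5 higher members (Psma3, Psmc3ip, Psmd10, Psmd11 and Psme4), beside 23% of all genes. Lower past 1.2-fold under all 3 were 11 members (Psmb5, Psmb8, Psmb10, Psmc1, Psmd1, Psmd7, Psmd9, Psme1, Psme2, Psme2b and Psmg1), beside 27.1% of all genes. Intervals given in brackets below are 95% exact intervals from recovered fragment numbers, and they cover counting error only, not the spread between cultures.

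**Figure D3:**
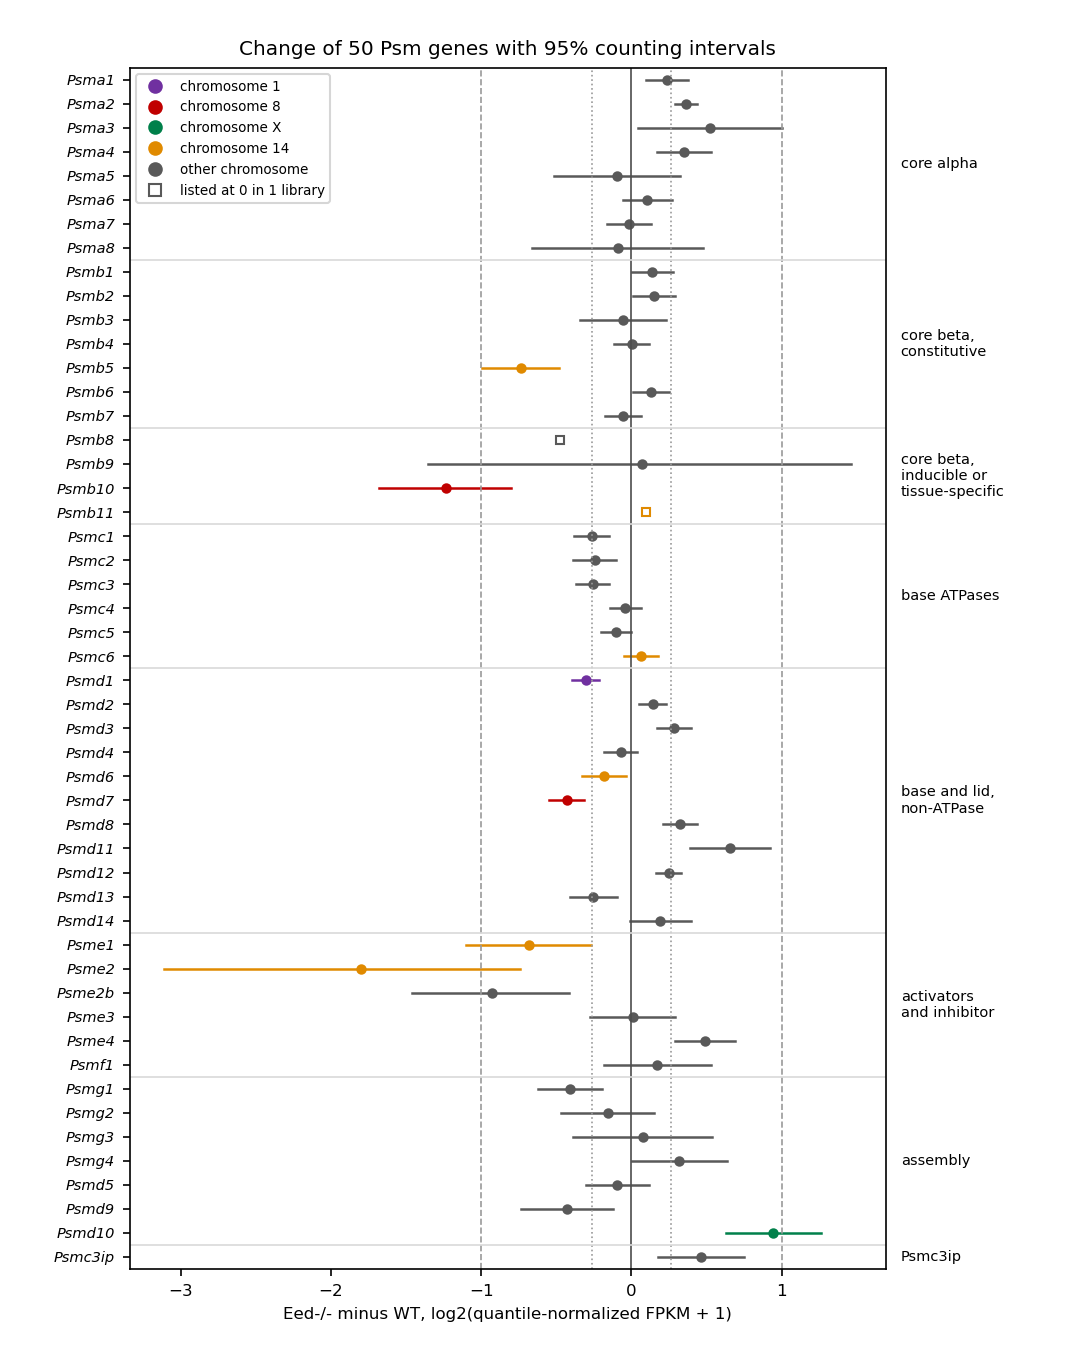
Change of each of the 50 Psm genes between the libraries, as the library labelled Eed-/- minus WT in log2(quantile-normalized FPKM + 1), with 95% counting intervals as bars, dotted lines at 1.2-fold and dashed lines at 2-fold. Colors mark chromosomes 1, 8, 14 and X, squares mark genes listed at 0 in 1 library, and Psmb10 (-1.23) and Psme2 (-1.80) are the points below the lower 2-fold line.

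Psmb10 was the lowest of the core particle genes relative to WT, while Psmb8, Psmb9 and Psmb11 were at most at 2.22 FPKM. Psmb10, which replaces the trypsin-like subunit Psmb7 in the immunoproteasome, had 20.2 FPKM in WT against 7.10 in the library labelled Eed-/-, and the change was -1.23 [-1.68 to -0.80], a 2.53-fold lower normalized FPKM, from about 159 and 49.4 fragments. The gene lies on chromosome 8 of mm9 from 108459628 to 108462292. Its change was lower than the median of that chromosome by 0.84. In RNA from a whole culture, fewer cells with a transcript and less of it per cell cannot be told apart. Psmb8, the inducible counterpart of Psmb5, had 0.396 FPKM in WT, about 2.97 fragments, and was listed at 0 in the library labelled Eed-/-. A difference in Psmb8 was not detectable at this depth, although its change of -0.48 counts among the lower members. Psmb9, the counterpart of Psmb6, had 2.19 and 2.22, a change of 0.07 [-1.35 to 1.46]. Psmb11 was listed at 0 in WT against 0.0762 in the library labelled Eed-/-, about 1.98 fragments. The constitutive forms exceeded the inducible ones in both libraries, with Psmb7 at 9.57 times the FPKM of Psmb10 in WT and 22.3 times in the library labelled Eed-/-. For Psmb6 over Psmb9 the ratios were 127 and 117. The 6 immune cell markers summed to 0.887 FPKM in WT against 1.28 in the library labelled Eed-/-, with Ptprc and Lyz2 at 0 in both.

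Psme1 and Psme2, which form the interferon-inducible activator, were lower in the library labelled Eed-/-, although not all activators were. Psme1, the alpha subunit, had 37.6 FPKM in WT against 20.2 in the library labelled Eed-/-, a change of -0.68 [-1.10 to -0.27]. Psme2, the beta subunit, had 6.43 and 1.00, about 28.5 and 3.93 fragments, and a change of -1.80 [-3.11 to -0.74]. These genes are neighbors on chromosome 14, Psme1 from 56196960 to 56200366 and Psme2 from 56206278 to 56209950 of mm9. Psme2b, an intronless copy on chromosome 11 (48758856 to 48759692) with 99.31% identity to Psme2, had 20.7 and 9.29, a change of -0.92 [-1.46 to -0.41]. The annotation names it Psme2b-ps and gives it a coding sequence. Reads of Psme2 and Psme2b cannot be told apart with certainty, and their summed FPKM was 27.2 in WT against 10.3 in the library labelled Eed-/-, 2.36-fold lower after normalization. Psme3, the nuclear gamma activator, had 62.6 and 53.6, a change of 0.01 [-0.27 to 0.29] whose sign depended on the scaling. Psme4, the activator that recognizes acetylated histones, was higher in the library labelled Eed-/-, with 61.3 and 74.2 and a change of 0.49 [0.29 to 0.69] (chromosome 11, 30671726 to 30780361). The inhibitor Psmf1 had 5.93 and 6.08, a change of 0.17 [-0.19 to 0.53].

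Promoters of these genes are shown because Psmb10, Psme1 and Psme2 had large changes, and those of Psmb5 and Psmb6 because these catalytic genes differed from each other. RefSeq windows from 250 bases before to 50 bases after the start were found for 42 of the 50 genes (45 windows, GRCm38.p6). Capitals mark letters of the interferon-stimulated response element (GAAA, any 2 bases, then GAAA) or of TGACNNNGC (the antioxidant response element, bound by Nfe2l1 and Nfe2l2), searched on both strands and written 5′ to 3′ on the gene's strand.
Psmb10, chr8:105938343-105938642, minus strand: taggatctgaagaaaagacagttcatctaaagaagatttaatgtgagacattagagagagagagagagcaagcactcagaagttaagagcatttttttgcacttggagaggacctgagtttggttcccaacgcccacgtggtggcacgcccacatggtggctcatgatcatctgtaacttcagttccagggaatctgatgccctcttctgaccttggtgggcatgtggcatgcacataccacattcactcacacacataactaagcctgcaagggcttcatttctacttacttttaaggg
Psme1, chr14:55578244-55578543, plus strand: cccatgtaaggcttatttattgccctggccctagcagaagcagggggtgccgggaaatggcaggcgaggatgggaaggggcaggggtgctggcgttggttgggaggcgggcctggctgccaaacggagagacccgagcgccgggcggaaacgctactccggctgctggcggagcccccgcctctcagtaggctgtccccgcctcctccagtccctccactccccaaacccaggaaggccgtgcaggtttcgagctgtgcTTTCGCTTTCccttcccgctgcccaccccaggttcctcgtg
Psme2, chr14:55590972-55591271, minus strand: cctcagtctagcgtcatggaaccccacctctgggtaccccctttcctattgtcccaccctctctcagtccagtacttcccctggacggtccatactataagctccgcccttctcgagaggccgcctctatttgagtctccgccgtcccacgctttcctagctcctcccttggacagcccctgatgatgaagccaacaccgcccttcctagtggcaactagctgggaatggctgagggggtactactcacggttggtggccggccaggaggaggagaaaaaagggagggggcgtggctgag
Psmb5, chr14:54617946-54618245, minus strand: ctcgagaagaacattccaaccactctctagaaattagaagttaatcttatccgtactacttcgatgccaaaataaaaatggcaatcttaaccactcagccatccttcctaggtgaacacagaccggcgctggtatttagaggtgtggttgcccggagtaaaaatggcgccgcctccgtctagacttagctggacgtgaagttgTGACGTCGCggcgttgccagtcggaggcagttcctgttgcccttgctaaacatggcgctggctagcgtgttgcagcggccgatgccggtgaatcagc
Psmb6, chr11:70525107-70525406, plus strand: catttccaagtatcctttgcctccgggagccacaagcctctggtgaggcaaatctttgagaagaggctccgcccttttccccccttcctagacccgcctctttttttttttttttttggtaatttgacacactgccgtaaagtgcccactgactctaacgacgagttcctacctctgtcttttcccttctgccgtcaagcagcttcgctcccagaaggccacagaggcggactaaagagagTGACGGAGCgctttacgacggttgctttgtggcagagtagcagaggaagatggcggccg
In Psme1 the letters TTTCGCTTTC, the interferon-stimulated response element on the opposite strand, began 9 bases after the start. The Psmb10 window and both windows of Psme2 held neither motif. Psmb5 had TGACGTCGC from 47 bases before its start and Psmb6 had TGACGGAGC from 9 bases before. The interferon-stimulated response element was found in 5 of 45 member windows (11.1%; Psmb3, Psmd4, Psmd9, Psme1 and Psmg4) and in 3.44% of all 32851 windows. TGACNNNGC was found in 13.3% of member windows and 12.4% of all. CCAAT, the letters bound by NF-Y, were in 33.3% and 37.4%, and TTCNNNGAA, bound by STAT factors, in 6.67% and 8.30%. In windows of genes at 20 FPKM or more, TGACNNNGC was in 14.9%, CCAAT in 40.4% and TTCNNNGAA in 6.10%. The interferon-stimulated response element was in 2.74% of those windows. TGACNNNGC stood in 6 and TTCNNNGAA in 3 of the 45 member windows. With so few windows, no difference from that set is drawn for these motifs. Overlaps between motifs were not removed. The median GC content was 57.3% for member windows and 52.7% for all, with medians of 19 and 7 CpG sites, while windows of genes at 20 FPKM or more had 61.3% and 23 CpG sites. The Psmb10 window had 45.7% GC and 3 CpG sites. A match is a description of these letters and shows no binding.

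In the beta rings, 1 constitutive subunit stood apart. Psmb5, which carries the chymotrypsin-like site, had 82.6 FPKM in WT against 42.0 in the library labelled Eed-/-, a change of -0.74 [-0.996 to -0.48] and a 1.68-fold lower normalized FPKM. It lies on chromosome 14 of mm9 from 55232644 to 55236851, 964316 bp from the start of Psme1, and has 1 intronless copy on chromosome 7 with 98.9% identity. The other catalytic subunits differed little. Psmb6 (279 and 259) had a change of 0.13 [0.01 to 0.25], which was -0.11 with FPKM as deposited, and Psmb7 (193 and 159) had a change of -0.06 [-0.17 to 0.06]. The 4 noncatalytic subunits Psmb1 to Psmb4 lay between -0.05 and 0.15. The median over the 7 constitutive beta genes was 0.0016, or -0.24 with FPKM as deposited. By 1.2-fold, 0 were higher and 1 (14.3%) was lower, beside 29.2% and 28.5% of all genes.

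Of the 8 alpha ring genes, 3 (37.5%) were higher by 1.2-fold in the library labelled Eed-/- and 0 lower, beside 29.2% and 28.5% of all genes, with a median of 0.17 that turned to -0.10 with FPKM as deposited. Psma2, the most abundant, had 169.5 and 182, a change of 0.36 [0.29 to 0.44]. Psma4 had 112 and 119, a change of 0.35 [0.17 to 0.53], and Psma3 (5.00 and 6.86) a change of 0.52 [0.04 to 1.00]. All 3 genes have near-identical copies, and only Psma3 was past 1.2-fold under all 3 scalings. The most negative alpha change was that of Psma5, 13.01 and 10.9, at -0.09 [-0.51 to 0.32]. Psma8, which takes the place of Psma7 in testis proteasomes, had 6.93 FPKM in WT against 5.73 in the library labelled Eed-/-, far below the 169 and 139 of Psma7. The other alpha genes, Psma1, Psma6 and Psma7, had changes from -0.02 to 0.24.

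The 6 base ATPases form the ring that unfolds substrates, and 5 of them were below 0, beside 49% of all genes. Their changes spanned -0.26 to 0.07, with a median of -0.17 that was -0.40 with FPKM as deposited. Psmc5 was the most abundant, with 226 in WT against 179.98 in the library labelled Eed-/-, and its change was -0.10 [-0.20 to 0.00]. Psmc2 was the least abundant, with 89.3 and 64.4 and a change of -0.24 [-0.39 to -0.10]. Psmc1 (167 and 115) was the 1 ATPase gene past 1.2-fold, at -0.26 [-0.38 to -0.15], where 28.5% of all genes were lower by this fold. Psmc3 (168.5 and 116) was just inside this fold at -0.26 [-0.37 to -0.15]. Psmc6 (100.2 and 87.7) had the highest change of the ring, 0.07 [-0.05 to 0.18].

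The 11 non-ATPase genes of the base and lid were split between higher and lower values. By 1.2-fold, 3 (27.3%) were higher and 2 (18.2%) lower, beside 29.2% and 28.5% of all genes. Higher by 1.2-fold in the library labelled Eed-/- were Psmd11, Psmd8 and Psmd3, all lid subunits. Psmd11, whose product stabilizes the regulatory particle and is known for raising proteasome activity in embryonic stem cells, had 46.8 FPKM in WT against 64.3 in the library labelled Eed-/-, a change of 0.66 [0.39 to 0.93]. It has an intronless copy on chromosome 2 with 97.95% identity. Psmd8 (138 and 143) had a change of 0.32 [0.21 to 0.44] and Psmd3 (151 and 156) one of 0.29 [0.17 to 0.40]. Both were under 1.2-fold with FPKM as deposited. Lower by 1.2-fold were Psmd7 and Psmd1. Psmd7, the partner of the deubiquitinase Psmd14 in the lid, had 165 in WT against 101 in the library labelled Eed-/-, a change of -0.43 [-0.54 to -0.31]. Psmd1, a scaffold of the base, had 122 and 82.5, a change of -0.30 [-0.39 to -0.21]. Psmd14 itself (92.6 and 88.5) had a change of 0.19 [-0.01 to 0.39] that was -0.07 with FPKM as deposited. Psmd4, a ubiquitin receptor and the most abundant of this group in WT, had 199 and 161, a change of -0.07 [-0.18 to 0.04]. In the library labelled Eed-/- the most abundant was Psmd12, with 189 in WT and 192 there. Psmd2, Psmd6, Psmd12 and Psmd13 had changes from -0.25 to 0.25.

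Assembly genes gave the highest member and lower ones beside it. Psmd10 (gankyrin), a chaperone of the base, had 13.996 FPKM in WT against 24.8 in the library labelled Eed-/-, a change of 0.94 [0.63 to 1.26] and a 1.99-fold higher normalized FPKM. The other base chaperones were not higher. Psmd9 had 11.7 and 7.58, a change of -0.42 [-0.73 to -0.12], and Psmd5 had 54.7 and 43.3, a change of -0.09 [-0.30 to 0.12]. Psmg1 and Psmg2 form a dimer that starts the alpha ring. Psmg1 had 91.8 and 58.4, a change of -0.41 [-0.62 to -0.20], and Psmg2 had 27.99 and 22.0, a change of -0.16 [-0.47 to 0.15]. The second dimer of alpha ring chaperones is made of Psmg3 and Psmg4. Psmg4 had 69.9 and 74.9, a change of 0.32 [0.00 to 0.64], and Psmg3 had 16.8 and 15.9, a change of 0.08 [-0.39 to 0.53] that was -0.07 with FPKM as deposited. Psmc3ip, the symbol match outside the proteasome, had 22.4 and 27.3, a change of 0.46 [0.17 to 0.75].

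Several members that stood apart lie on chromosomes or in regions whose genes were shifted as a group. Psmd1 on chromosome 1 differed from the median of its chromosome by -0.005, and Psmd7 on chromosome 8 by -0.04. Both genes thus sat at the level of their chromosomes. Psmd10 on chromosome X (137482968 to 137491267) was above its chromosome's median of 0.46 by 0.49, and the 3 genes that passed the filter within 500000 bp of it had a median of 0.27. Around Psmb10, 36 genes within 500000 bp had a median change of -0.44 and 30 of them were below 0. Around Psmb5, 33 genes had a median of -0.32 with 24 below 0. Around Psme1, 31 genes, with Psme2 among them, had a median of -0.33 with 23 below 0, although the median of chromosome 14 was -0.07. The windows around Psmb5 and Psme1 overlap at their edge, so these sets of genes are not fully separate. The changes of Psmb10, Psmb5 and Psme1 were larger than these medians, and the part of their regions in them was not tested. Medians around Psma2 (3 genes) and Psmc1 (5 genes) were 0.52 and -0.43, further from 0 than the members' own changes. Those around Psma4, Psmg4, Psmd9 and Psme2b (0.15, 0.10, -0.04 and -0.15) had the sign of the member. The sign was opposite around Psma3, Psmb8, Psmc3ip, Psmd3, Psmd8 and Psmg1 (-0.11, 0.02, -0.11, -0.05, -0.06 and 0.14). It was also opposite around Psmd11 and Psme4, with medians of -0.02 and -0.03. The part of these regions in the changes was not tested. The 50 members lie on 16 chromosomes, with 10 on chromosome 11.

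Genes that work with the proteasome but carry other symbols were compared in the same way, and their counts stand beside 29.2% of all genes higher and 28.5% lower by 1.2-fold. Of 9 further parts and assembly factors, 0 were higher and 3 (33.3%) lower by 1.2-fold in the library labelled Eed-/-, and their median was -0.22. The lower ones were the deubiquitinase Uchl5 (41.8 and 25.7 FPKM, -0.49, chromosome 1), the lid component Shfm1 (309.6 and 193, -0.45) and the ubiquitin receptor Adrm1 (5.63 and 3.72, -0.38). Pomp, the chaperone that completes the beta rings, had 146 and 121 and a change of -0.02. Of 12 shuttle factors and Vcp cofactors, 3 were higher and 2 lower, with a median of 0.08 whose sign depended on the scaling. The shuttle Ubqln2 on chromosome X had the highest change (3.30 and 8.17, 1.21). Of 6 ubiquitin and ubiquitin-activating genes, 3 were higher and 1 lower. The activating enzymes Uba1 on chromosome X (90.3 and 112, 0.56) and Uba6 (14.3 and 20.1, 0.63) were higher, as was Rps27a (35.2 and 52.0, 0.76), a ubiquitin fusion gene with 12 near-identical copies. The lower gene was the polyubiquitin gene Ubb, the most abundant of this list (398 and 252, -0.45). Of 9 regulators of proteasome genes, 0 were higher and 2 lower, with a median of -0.08. Nfe2l1, the main activator of proteasome genes, had 53.6 and 43.1 and a change of -0.08, whereas Nfe2l2, its relative in the oxidative stress response, had 26.1 and 16.6 and a change of -0.45.

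Other abundant complexes gave a scale for these values. Counts of the lists below stand beside 29.2% of all genes higher and 28.5% lower by 1.2-fold (27% and 25.9% at 20 FPKM or more). The COP9 signalosome and the eIF3 translation factor share their architecture with the proteasome lid, and the CCT chaperonin folds cytosolic proteins. Of 9 signalosome genes, 2 were higher and 3 lower by 1.2-fold, with a median of -0.10, and all 3 lower genes (Cops5, Cops7b and Cops8) lie on chromosome 1. Of 12 eIF3 genes, 2 were higher and 2 lower, with a median of -0.0032. Of 8 CCT genes, 0 were higher and 4 lower, with a median of -0.29 after normalization. Their median FPKM as deposited, a different scale, was 366 in WT against 237 in the library labelled Eed-/-. The core particle had a median of 0.04 over 18 genes, negative with FPKM as deposited, and the regulatory particle one of -0.07 over 17, between the values of the CCT chaperonin and of the ubiquitin genes (0.23). Of 7 other genes of interferon-inducible antigen processing that passed the filter, 0 were higher and 3 lower, namely Erap1 (1.77 and 0.768 FPKM, -0.60), the transcription factor Irf1 (25.4 and 16.2, -0.46) and the peptide transporter Tap1 (1.15 and 0.727, -0.29), with a median of -0.03 over the list.

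**Figure D4:**
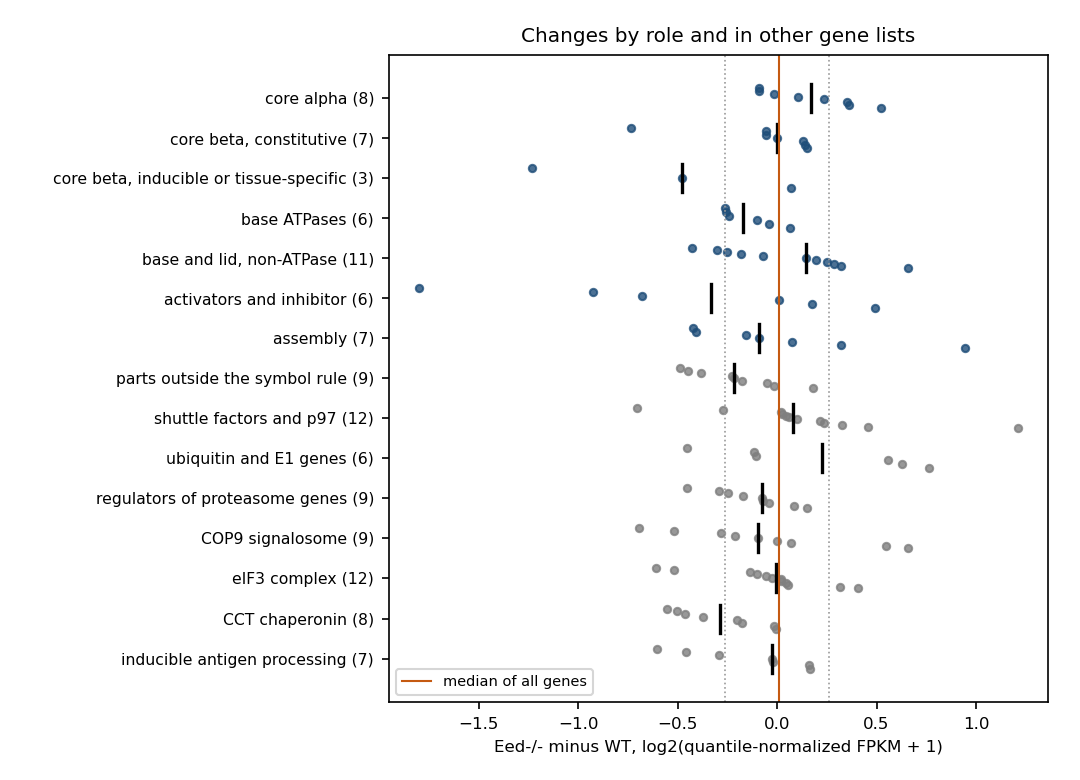
Change of each gene (1 point per gene, the library labelled Eed-/- minus WT in log2(quantile-normalized FPKM + 1)) by proteasome role in blue and in other gene lists in grey, with black bars at list medians, an orange line at the median of all genes (0.01) and dotted lines at 1.2-fold. The median of the alpha ring genes (0.17) lies to the right of that of the ATPases (-0.17), although the points overlap. With FPKM as deposited these medians were -0.10 and -0.40. The activators are the most spread, from -1.80 to 0.49.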

How the data were processed

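Strand-specific libraries from ribosomal RNA-depleted total RNA were sequenced for 1 WT and 1 Eed-/- sample of 32 samples in the series. The authors aligned the reads to mm9 using TopHat and computed FPKM with Cufflinks, which they deposited for each gene symbol. The submitters' processing notes name TopHat2 2.0.11, Bowtie2 2.2.2 and Cufflinks 2.2.1, while the paper's methods name another TopHat version. The annotation is not given in the sources used here. ChIP-seq, MethylC-seq and 4C-seq samples were not analysed here.

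Repeated symbols were summed, the 2 libraries were brought to a common distribution by quantile normalization, and changes were taken on a log2(FPKM + 1) scale, which understates changes of low genes, with a filter at a mean of 0.1. The log2 values were thus computed from the deposited FPKM, and folds of 1.2 and 2 described size. Members and lists were chosen with earlier results of these data known. The text gives every inducible, catalytic, activator and assembly member, the extremes of the other roles, every member past 1.2-fold or on chromosomes 1, 8 and X, and at most 3 genes of each further list, except that Pomp and Nfe2l1 and the lower signalosome genes were added for their roles after their values were seen. Some genes that this rule selects are not reported here.

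Positions came from GENCODE vM1 on NCBIM37 (mm9), with all 50 members matched. Copies were found by aligning the longest coding sequence of each gene with minimap2 2.31. Depth was recovered from low FPKM of genes with 1 transcript, of which 79.4% of 841 values in WT and 81.1% of 952 in the library labelled Eed-/- were at most 0.1 from a whole fragment number, where 20% would if values were spread evenly. Fragment numbers use the median transcript length less 180 bp and are approximate. Intervals are exact Clopper-Pearson at 95%. Promoters came from RefSeq. The scripts were tested on simulated data. Tools were scipy 1.17.1, pandas 2.3.3 and numpy 2.4.6 in Python 3.11.15, with plots by matplotlib 3.10.9. The 13 alternatives covered scaling, pseudocount, filter, repeated symbols, small RNAs, chromosomes, copies, the fold and tissue-specific members.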

Additional observations from a re-analysis of the deposited data

How the results depend on the processing

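With FPKM as deposited, the median change of the members was -0.24, 5 were higher and 23 lower by 1.2-fold, and the medians were -0.10 for alpha and -0.40 for ATPase genes. Median-ratio scaling gave 5 higher and 15 lower members, beside 30.2% and 27.9% of all genes. Pseudocounts of 0.1 and 0.01 moved the median of the inducible beta genes to -1.33 and -1.34. Leaving out chromosomes 1, 8 and X, subtracting chromosome medians, or leaving out genes with copies each left 1 member past 2-fold, and the last gave 6 higher and 7 lower of 38 members by 1.2-fold, beside 28.6% and 29.0% of all genes. A fold of 1.5 gave 2 higher and 5 lower, beside 12.3% and 12.4% of all genes. The median of the activator genes was 0.09 without genes that have copies, and that of the base and lid non-ATPase genes was -0.07 without them and -0.13 with FPKM as deposited. The median of the constitutive beta genes was below 0 in 4 alternatives, down to -0.24 with FPKM as deposited, and that of all members was 0.0016 without chromosomes 1, 8 and X. No member past 1.2-fold changed its sign in any of these alternatives. No paired analysis was possible because each genotype had 1 RNA library. For the same reason no library could be left out. Depth limits genes such as Psmb8, Psmb9 and Psmb11, with under 6 fragments per library. It also limits Psme2, which had about 28.5 fragments in WT but 3.93 in the library labelled Eed-/-.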
